A study of Saccharomyces cerevisiae with 3 samples.

Results

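The glycerol genes of budding yeast described here are 10 genes of glycerol synthesis, glycerol use and glycerol passage through the membrane, out of 5777 genes measured. They are *GPD1*, *GPD2*, *GPP1* and *GPP2* (synthesis), *GUT1*, *GUT2* and *DAK1* (use), and *STL1*, *FPS1* and *AQY3* (transport and channels). They were taken as a list of names, and each was found on the arrays through its locus tag with 8 probes. The list was chosen by pathway with the log2 ratios between these arrays known, in which *GUT2* and *AQY3* already stood out, so the values of the members are a description.

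Yeast of strain DS10 (*Saccharomyces cerevisiae*, titled WT in all samples) carried the plasmid pRS415, which has a *LEU2* marker and here the strong GPD promoter, and was grown to log phase without leucine. The promoter drove Ssz1 with the substitution S295F on the first array, residues 365 to 433 of Zuo1 with S427G on the second (the Zuo1 fragment), and TAP on the third (vector). Ssz1 and Zuo1 form a chaperone complex on the ribosome, and both are known to activate the drug resistance factor Pdr1. As models these are overexpressed mutant forms in a strain for which the labels name no deletion of either gene.

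RNA of 3 biological replicates was pooled for each plasmid and put on 1 array, so no spread between cultures exists, no p-value was computed, and each comparison is one between these arrays. The measurement is the deposited intensity after RMA, a linear brightness summarised over a gene's probes, given for 3 blocks of each array. A level below is the mean over the 3 blocks taken on the log2 scale, a log2 ratio is the difference of such means, and the error after a ratio is its SD over the 3 blocks, which covers noise within the arrays and nothing between cultures. A gene is called higher or lower where its ratio reached 2-fold. The level of *SSZ1* was 19318 with Ssz1 S295F, 12001 with the Zuo1 fragment and 10279 with vector, so the array labelled Ssz1 S295F had the highest reading of that gene. The level of *ZUO1* was 13744 with Ssz1 S295F, 12935 with the Zuo1 fragment and 13337 with vector, so the array labelled with the Zuo1 fragment had the lowest reading of that gene. How many *ZUO1* probes lie within the fragment was not determined, so this reading does not check that label. The comparisons of Ssz1 S295F and of the Zuo1 fragment with vector use the same vector array. In RNA from whole cultures, more transcript per cell and more cells that carry the transcript cannot be told apart.

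Yeast makes glycerol from dihydroxyacetone phosphate, a product of glycolysis. Glycerol-3-phosphate dehydrogenase reduces it with NADH and a phosphatase releases glycerol, which balances redox state and serves as the osmolyte of salt-stressed cells under the Hog1 kinase. To use glycerol as a carbon source, cells take it up, phosphorylate it with a kinase and oxidise the product in mitochondria, steps that glucose is known to repress.

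Of the 10 genes, *GUT2* and *AQY3* were past 2-fold above vector with both constructs, and the other 8 were within 2-fold in every comparison. For Ssz1 S295F over vector, 2 of 10 were higher and 0 lower, where 5.02% of all genes were higher and 2.77% lower. For the Zuo1 fragment over vector, 2 of 10 were again higher and 0 lower, where 3.64% of all genes were higher and 0.866% lower. For Ssz1 S295F over the Zuo1 fragment, 0 of 10 were past 2-fold, as against 0.138% of all genes in each direction. As these contrasts served to choose the members, the shares are printed for scale and nothing is read from them. The median log2 ratio of the 10 genes was 0.04 for Ssz1 S295F over vector, against -0.15 for all genes, and -0.05 for the Zuo1 fragment over vector, against -0.12 for all genes. Leaving *GUT2* and *AQY3* aside, the other 8 had ratios to vector of -0.15 to 0.39 with Ssz1 S295F, and the Zuo1 fragment gave -0.22 to 0.38. Direct ratios of Ssz1 S295F over the Zuo1 fragment had a median of -6.2e-06 over the 10, against -0.03 for all genes.

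**Figure D1:**
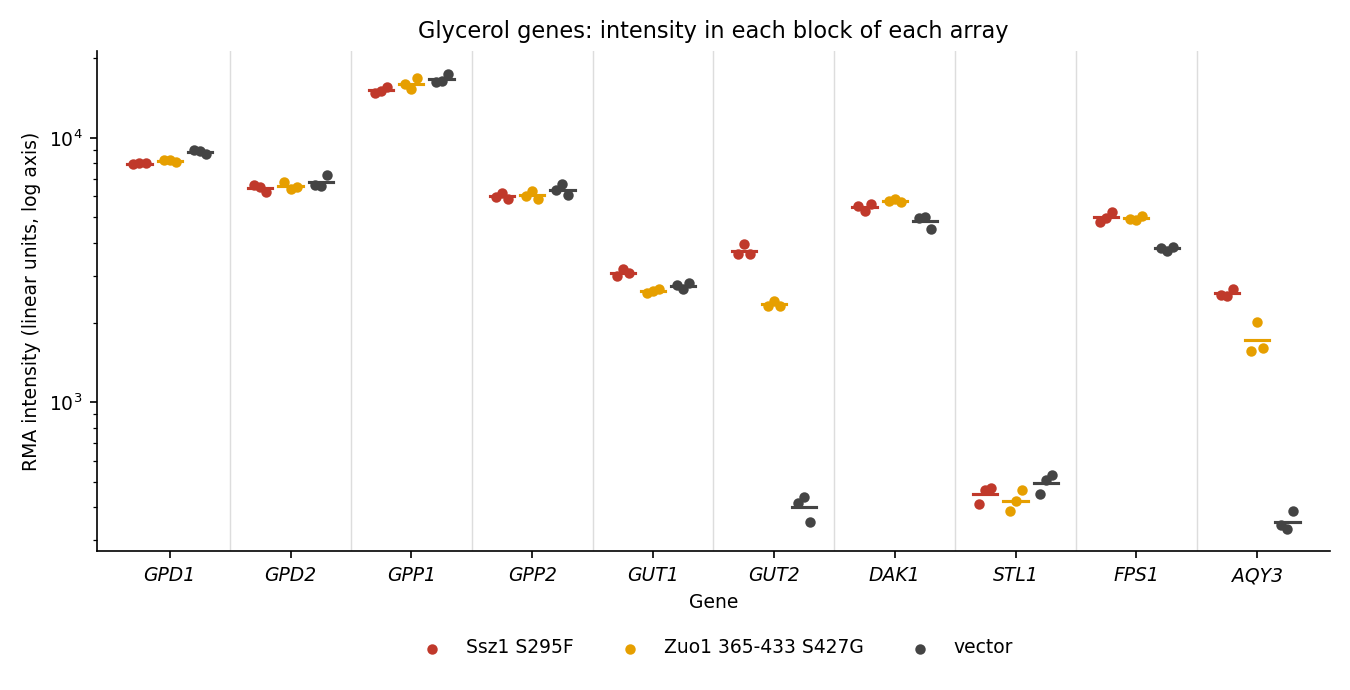
RMA intensity (log axis) of the 10 glycerol genes, with 1 point for each of the 3 blocks of an array and a line at their mean on the log2 scale, for Ssz1 S295F, the Zuo1 fragment and vector. *GUT2* and *AQY3* lie far above vector on both construct arrays, while the points of the other genes lie close together.

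The first step of synthesis is made by 2 related dehydrogenases. *GPD1* (YDL022W, chromosome IV, 411822 to 412997), the form induced by osmotic stress, had levels of 7997 with Ssz1 S295F, 8206 with the Zuo1 fragment and 8859 with vector. Its readings were lowest with Ssz1 S295F and highest with vector, and the blocks of the 3 arrays did not overlap. The log2 ratios to vector were nonetheless small, at -0.15 ± 0.03 for Ssz1 S295F and -0.11 ± 0.01 for the Zuo1 fragment. *GPD2* (YOL059W, chromosome XV, 217126 to 218448), the form used when oxygen is short, had levels of 6458 with Ssz1 S295F, 6576 with the Zuo1 fragment and 6805 with vector. Its ratios to vector, -0.08 ± 0.11 for Ssz1 S295F and -0.05 ± 0.09 for the Zuo1 fragment, were within the spread over blocks.

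The phosphatases that release glycerol are *GPP1* and *GPP2*, whose sequences are close to each other, so that signal of one may be read by probes of the other. *GPP1* (YIL053W, chromosome IX, 255113 to 255865) had levels of 15119 with Ssz1 S295F, 16044 with the Zuo1 fragment and 16728 with vector. Its ratio to vector was -0.15 ± 0.03 for Ssz1 S295F and -0.06 ± 0.04 for the Zuo1 fragment. *GPP2* (YER062C, chromosome V, 279928 to 280680), the partner of *GPD1* under osmotic stress, had levels of 6012 with Ssz1 S295F, 6062 with the Zuo1 fragment and 6369.8 with vector. Its ratio to vector was -0.08 ± 0.02 for Ssz1 S295F and -0.07 ± 0.02 for the Zuo1 fragment. All 4 synthesis genes thus read slightly below vector with both constructs. With the ratios centred on the median of all genes they came to lie above 0, between 0.0020 and 0.07 for Ssz1 S295F and between 0.013 and 0.07 for the Zuo1 fragment, so the direction turns with the centring.

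On the side of use, the kinase and the dehydrogenase had unlike ratios. *GUT1* (YHL032C, chromosome VIII, 36377 to 38506), the glycerol kinase, had levels of 3087 with Ssz1 S295F, 2632 with the Zuo1 fragment and 2761 with vector. Its blocks read 2991, 3196 and 3078 for Ssz1 S295F, 2588, 2626 and 2682 for the Zuo1 fragment, and 2777, 2685 and 2823 for vector. Ssz1 S295F was above the other arrays in every block, while the Zuo1 fragment and vector lay next to each other. The ratio to vector was 0.16 ± 0.08 for Ssz1 S295F and -0.07 ± 0.03 for the Zuo1 fragment, and the ratio for the Zuo1 fragment became 0.05 after centring.

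*GUT2* (YIL155C, chromosome IX, 51759 to 53708) encodes the mitochondrial glycerol-3-phosphate dehydrogenase, which passes electrons to the respiratory chain and also serves the glycerol-3-phosphate shuttle of NADH. Its blocks read 3631, 3965 and 3644 for Ssz1 S295F, 2309, 2413 and 2303 for the Zuo1 fragment, and 415, 436 and 353 for vector. No block of one array overlapped with a block of another, and the order was Ssz1 S295F, then the Zuo1 fragment, then vector. The log2 ratio to vector was 3.23 ± 0.13 for Ssz1 S295F, a 9.37-fold higher level, and 2.55 ± 0.14 for the Zuo1 fragment, a 5.86-fold higher level. From the top of all 5777 genes, *GUT2* ranked 7 for Ssz1 S295F over vector and 16 for the Zuo1 fragment over vector. The level with Ssz1 S295F was also above that with the Zuo1 fragment, by 0.68 ± 0.03 on the log2 scale or 1.60-fold, a comparison that does not use the vector array.

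Glycerol kinase and the mitochondrial dehydrogenase act one after the other. On these arrays *GUT1* differed from vector by 1.12-fold with Ssz1 S295F, and *GUT2* by 9.37-fold. *DAK1* (YML070W, chromosome XIII, 133475 to 135229), whose product phosphorylates dihydroxyacetone and so detoxifies it, had levels of 5472 with Ssz1 S295F, 5785 with the Zuo1 fragment and 4837 with vector. Both constructs were above vector in all 3 blocks, at 0.18 ± 0.12 for Ssz1 S295F and 0.26 ± 0.07 for the Zuo1 fragment.

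**Figure D2:**
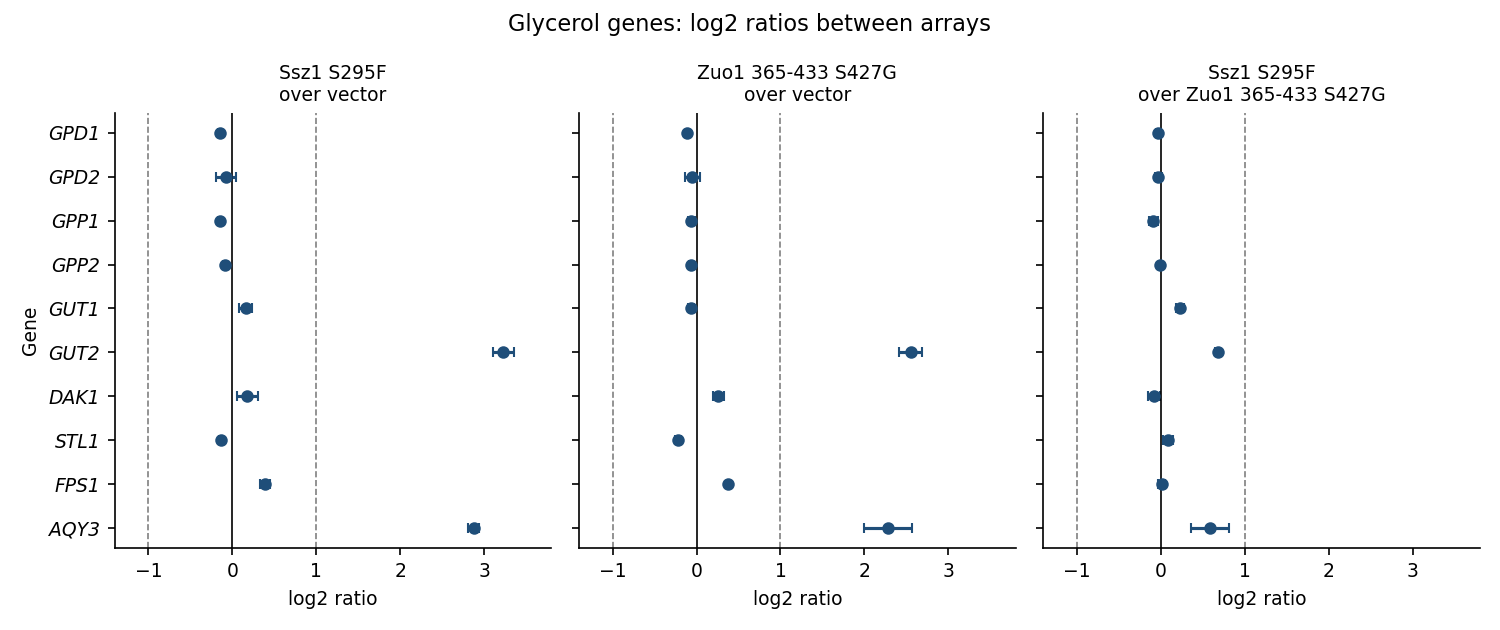
Log2 ratios of the 10 glycerol genes in the comparisons of Ssz1 S295F with vector, the Zuo1 fragment with vector and Ssz1 S295F with the Zuo1 fragment, with bars of 1 SD over 3 blocks and dashed lines at 2-fold. *GUT2* and *AQY3* alone of the 10 lie past the dashed lines, at 3.23 and 2.87 for Ssz1 S295F over vector and at 2.55 and 2.28 for the Zuo1 fragment over vector.

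Passage through the plasma membrane is served by an uptake carrier and by channels. *STL1* (YDR536W, chromosome IV, 1507996 to 1509705), the glycerol and proton symporter, is known for a very strong induction by salt. Its blocks read 410.4, 467 and 474 for Ssz1 S295F, 387, 421 and 463 for the Zuo1 fragment, and 447, 506 and 530.1 for vector. The arrays overlapped, and the ratio to vector was -0.13 ± 0.02 for Ssz1 S295F and -0.22 ± 0.04 for the Zuo1 fragment. The sign of both turned once a loess on mean level was subtracted, to 0.34 for Ssz1 S295F and 0.21 for the Zuo1 fragment. *FPS1* (YLL043W, chromosome XII, 49937 to 51946), the channel through which cells release glycerol and which closes under osmotic stress, had levels of 5005 with Ssz1 S295F, 4964 with the Zuo1 fragment and 3813 with vector. Both construct arrays were above vector in every block, 1.31-fold (0.39 ± 0.06) for Ssz1 S295F and 1.30-fold (0.38 ± 0.02) for the Zuo1 fragment, and they differed from each other by 0.01 ± 0.04.

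*AQY3* (YFL054C, chromosome VI, 20847 to 22787) encodes a channel-like protein related to Fps1 whose role in yeast is not well known. Its blocks read 2533, 2529 and 2686 for Ssz1 S295F, 1563, 2009 and 1604 for the Zuo1 fragment, and 342, 331 and 386 for vector. The arrays did not overlap and stood in the same order as for *GUT2*, with 1 block of the Zuo1 fragment array brighter than its other blocks. The log2 ratio to vector was 2.87 ± 0.07 for Ssz1 S295F, a 7.32-fold higher level that ranked 17 among all genes, and 2.28 ± 0.28 for the Zuo1 fragment, a 4.86-fold higher level that ranked 23. Ssz1 S295F exceeded the Zuo1 fragment by 0.59 ± 0.23, with the 3 blocks at 0.70, 0.33 and 0.74.

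The vector readings of *GUT2* and *AQY3* were dim. On the array of Ssz1 S295F *GUT2* lay at the 62.7th percentile of all genes and *AQY3* at the 48.3rd, on that of the Zuo1 fragment at the 44.2nd and 33.3rd, and on that of vector at the 7.79th and 7.06th. Among the 577 genes below the 10th percentile of the vector array, 17.3% were past 2-fold higher and 13.2% past 2-fold lower for Ssz1 S295F, and 13.5% were higher and 4.16% lower for the Zuo1 fragment. Of those 577 genes, 5 had a higher ratio than *GUT2* and 11 a higher ratio than *AQY3* for Ssz1 S295F over vector, and 10 were above *GUT2* and 17 above *AQY3* for the Zuo1 fragment over vector. *STL1* stayed dim on all arrays, being at the 9.59th percentile on that of Ssz1 S295F, the 9.19th on that of the Zuo1 fragment and the 9.43rd on that of vector. With a pseudocount of 198 (the 5th percentile of the intensities) added to every value, *GUT2* was at 2.72 for Ssz1 S295F and 2.09 for the Zuo1 fragment, and *AQY3* at 2.34 for Ssz1 S295F and 1.80 for the Zuo1 fragment. As *GUT2* and *AQY3* stood out in these ratios when the members were chosen, their high ranks among dim genes are a description. The part of dimness in the size of the ratios was not tested beyond these values.

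Ratios to vector moved with coding length over the whole array, and the members differ in length. In 20 bins of genes ordered by length, the median ratio ran between -0.53 in the shortest bin and 0.17 in the highest one for Ssz1 S295F, and between -0.39 and 0.11 for the Zuo1 fragment. *GUT2* and *AQY3* have coding sequences of 1950 and 1941 bp, close to *FPS1* with 2010 bp and *GUT1* with 2130 bp, which were within 2-fold. *STL1* and *DAK1* have 1710 and 1755 bp, *GPD1* and *GPD2* 1176 and 1323 bp, and *GPP1* and *GPP2* 753 bp each. Of the 581 genes within 10% of the length of *GUT2*, 13.3% were past 2-fold higher for Ssz1 S295F and 10.3% for the Zuo1 fragment. In that window 1 gene had a higher ratio than *GUT2* for Ssz1 S295F over vector and 5 genes for the Zuo1 fragment over vector. Of the 574 genes near the length of *AQY3*, 5 were above it for Ssz1 S295F and 8 for the Zuo1 fragment. Of the 662 genes near the length of *STL1*, 494 were above it for Ssz1 S295F and 565 for the Zuo1 fragment. *GUT2* and *AQY3* stood out in these same ratios when the members were chosen, so their high ranks are a description. The part of length in their ratios was not tested.

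With a loess on coding length subtracted, *GUT2* was at 3.13 for Ssz1 S295F and 2.49 for the Zuo1 fragment, and *AQY3* at 2.77 for Ssz1 S295F and 2.22 for the Zuo1 fragment. *FPS1* was at 0.29 for Ssz1 S295F and 0.32 for the Zuo1 fragment. The short phosphatase genes, below vector as deposited, came to lie above 0. *GPP1* was then at 0.22 for Ssz1 S295F and 0.23 for the Zuo1 fragment, and *GPP2* at 0.29 for Ssz1 S295F and 0.22 for the Zuo1 fragment. The median of the 439 genes near their length was -0.32 for Ssz1 S295F and -0.25 for the Zuo1 fragment.

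**Figure D3:**
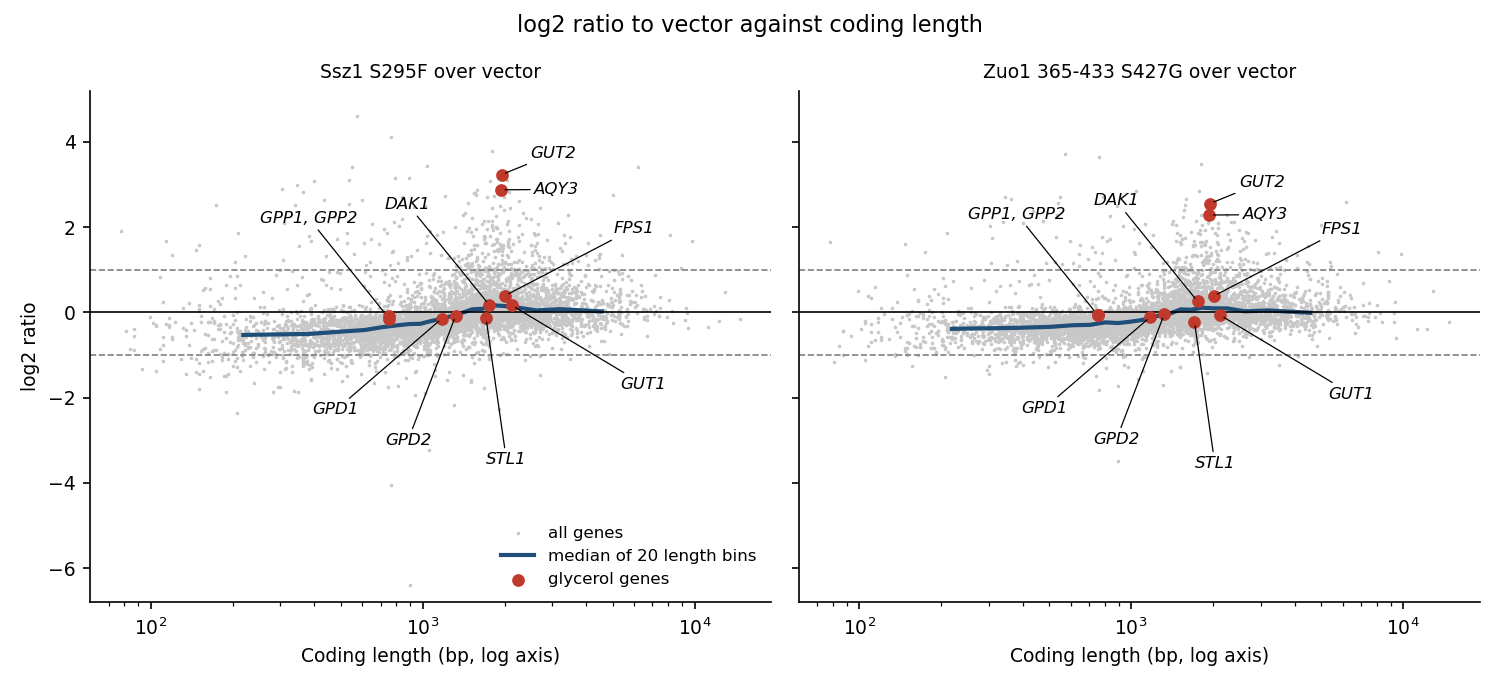
Log2 ratio to vector of every gene (grey) against coding length (bp, log axis), with the median of 20 bins of coding length (line), the 10 glycerol genes (red) and dashed lines at 2-fold. *GUT2* and *AQY3* lie near the top of the genes of their length, while *FPS1*, *GUT1*, *STL1* and *DAK1*, of similar length, lie between the dashed lines.

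The genes beside *GUT2* and *AQY3* on their chromosomes had smaller ratios to vector. *UBP7*, a deubiquitinase gene 452 bp beyond the end of *GUT2*, was at 0.06 ± 0.15 for Ssz1 S295F and 0.16 ± 0.14 for the Zuo1 fragment. *IMP21*, 272 bp upstream of *GUT2* on the same strand, was below vector, at -0.47 ± 0.01 for Ssz1 S295F and -0.54 ± 0.02 for the Zuo1 fragment. *AQY3* is divergent from *DAK2*, the other dihydroxyacetone kinase gene, and 635 bp lie between their coding sequences. *DAK2* had levels of 685 with Ssz1 S295F, 491 with the Zuo1 fragment and 403 with vector, and its ratio to vector was 0.77 ± 0.03 for Ssz1 S295F and 0.29 ± 0.01 for the Zuo1 fragment. On the other side of *AQY3*, the amino acid permease gene *AGP3* was at 0.29 ± 0.06 for Ssz1 S295F and 0.28 ± 0.03 for the Zuo1 fragment. None of the 10 members shares coding sequence with another gene on the arrays.

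Likeness over the 3 arrays was measured as the distance between pairs of log2 ratios to vector, among 4566 genes whose brightest array was at or above the 25th percentile. Nearest to *GUT2* were *YPK2* (distance 0.14), *VAM10* (0.28) and *TVS1* (0.29). *YPK2* had levels of 5922 with Ssz1 S295F, 4162 with the Zuo1 fragment and 693 with vector. *VAM10* lies wholly within *VPS5*, and the signals of both cannot be separated. Nearest to *AQY3* were *AMF1* (distance 0.10), *ATG15* (0.15) and *GEM1* (0.17). On vector these genes read 270, 257 and 293, dimmer still than *AQY3* at 353. The filter judged the brightest array only, so genes dim on vector could pass it. *GUT2* and *AQY3* themselves were 0.45 apart. With 3 arrays such a distance rests on 2 numbers per gene, which share the vector array.

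Other genes around the glycerol pathway were counted in 10 lists of 86 genes, all measured. Of all genes, 5.02% were higher and 2.77% lower for Ssz1 S295F, and 3.64% were higher and 0.866% lower for the Zuo1 fragment. The lists are short and were chosen with earlier results of these data known, so nothing is read from their counts beside those shares. The remaining enzymes of glycerol and dihydroxyacetone had 0 of 5 past 2-fold in either comparison with vector. Their median was -0.20 for Ssz1 S295F, against -0.15 for all genes, and -0.18 for the Zuo1 fragment, against -0.12 for all genes. *GCY1*, a putative glycerol dehydrogenase gene, was at -0.39 ± 0.02 for Ssz1 S295F and -0.23 ± 0.03 for the Zuo1 fragment. The list of glycerol uptake genes, regulators of Fps1 and other aquaporins also had 0 of 6 past 2-fold, with a median of -0.06 for Ssz1 S295F and -0.07 for the Zuo1 fragment. *RGC1* and *RGC2*, whose products bind Fps1 and keep it open, were at -0.09 ± 0.03 and 0.07 ± 0.06 for Ssz1 S295F and at -0.10 ± 0.02 and -0.04 ± 0.08 for the Zuo1 fragment. *AQY2*, a short water channel gene that overlaps YLL053C by 50 bp, was nearest to the threshold, at -0.98 ± 0.06 for Ssz1 S295F and -0.82 ± 0.03 for the Zuo1 fragment.

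At the branch points of dihydroxyacetone phosphate and glycerol-3-phosphate, 0 of 6 genes passed 2-fold, with a median of -0.09 for Ssz1 S295F and -0.04 for the Zuo1 fragment. The shares of all genes were 5.02% higher and 2.77% lower for Ssz1 S295F, and 3.64% higher and 0.866% lower for the Zuo1 fragment. With 6 genes, nothing is read from a count of 0 beside them. *GPT2*, an acyltransferase that draws glycerol-3-phosphate into lipids, was at 0.90 ± 0.15 for Ssz1 S295F and 0.75 ± 0.19 for the Zuo1 fragment, while its paralogue *SCT1* was at -0.06 ± 0.10 for Ssz1 S295F and -0.04 ± 0.04 for the Zuo1 fragment. *GIT1*, a plasma membrane carrier of glycerophosphoinositol, was at 0.96 ± 0.09 for Ssz1 S295F and 0.07 ± 0.07 for the Zuo1 fragment, and Ssz1 S295F exceeded the Zuo1 fragment by 0.88 ± 0.05. This gene was dim on all arrays, with levels of 208 with Ssz1 S295F, 113 with the Zuo1 fragment and 107 with vector.

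In the list of mitochondrial NADH dehydrogenases and shuttles, which also holds the lactate dehydrogenase gene *CYB2*, 1 of 5 was higher and 0 lower in each comparison with vector, where 5.02% of all genes were higher for Ssz1 S295F and 3.64% for the Zuo1 fragment. The list had a median of 0.19 for Ssz1 S295F and 0.09 for the Zuo1 fragment. The higher gene was *NDI1*, the NADH dehydrogenase of the inner face of the inner membrane, with levels of 3464 with Ssz1 S295F, 2596 with the Zuo1 fragment and 1247 with vector. Its ratio to vector was 1.47 ± 0.05 for Ssz1 S295F and 1.06 ± 0.22 for the Zuo1 fragment. *NDE1*, its main counterpart on the outer face and like *GUT2* an entry point for cytosolic electrons, was at 0.57 ± 0.05 for Ssz1 S295F and 0.44 ± 0.03 for the Zuo1 fragment. *NDE2*, the other dehydrogenase of the outer face, was at 0.13 ± 0.03 for Ssz1 S295F and -0.28 ± 0.06 for the Zuo1 fragment.

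The Hog1 pathway, which controls *GPD1*, *GPP2* and *STL1* under osmotic stress, had 2 of 19 signalling genes higher and 0 lower in each comparison with vector, beside 5.02% of all genes higher for Ssz1 S295F and 3.64% for the Zuo1 fragment. Its median was 0.02 for Ssz1 S295F and -0.03 for the Zuo1 fragment. *HKR1*, a mucin-like osmosensor, was at 1.33 ± 0.03 for Ssz1 S295F and 1.02 ± 0.02 for the Zuo1 fragment. The kinase gene *STE20* was at 1.05 ± 0.04 for Ssz1 S295F and, at the threshold, 1.001 ± 0.12 for the Zuo1 fragment. *HOG1* itself was at -0.17 ± 0.02 for Ssz1 S295F and -0.15 ± 0.0018 for the Zuo1 fragment. Among the pathway's transcription factors 0 of 6 were called, with a median of 0.29 for Ssz1 S295F and 0.13 for the Zuo1 fragment. In a list of 6, nothing is read from a count of 0 beside the shares of all genes. *HOT1*, which Hog1 uses to induce *STL1* and *GPD1*, lay just under the threshold for Ssz1 S295F (0.997 ± 0.04) and at 0.58 ± 0.03 for the Zuo1 fragment. As deposited, *STL1* and *GPD1* were slightly below vector on both construct arrays. Their signs turned under other scaling, and *STL1* was dim on all arrays. A link between *HOT1* and these genes was not tested.

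The list of other genes known to be induced by osmotic stress had a median of -0.86 for Ssz1 S295F and -0.35 for the Zuo1 fragment. Of 10 genes, 5 were lower and 0 higher for Ssz1 S295F, and 1 was lower and 0 higher for the Zuo1 fragment. Of all genes 2.77% were lower for Ssz1 S295F and 0.866% for the Zuo1 fragment, and of the 577 genes dim on vector 13.2% were lower for Ssz1 S295F and 4.16% for the Zuo1 fragment. For Ssz1 S295F the lower ones were *RTC3* (-1.85 ± 0.02), *SIP18* (-1.65 ± 0.03), *GRE1* (-1.60 ± 0.05), *PAI3* (-1.29 ± 0.03) and *TIP1* (-1.13 ± 0.04), a cell wall mannoprotein gene better known for induction by cold. For the Zuo1 fragment *RTC3* was at -1.20 ± 0.01. These genes are short, with 336, 240, 507, 207 and 633 bp in the order named, and genes of 78 to 654 bp had bin medians between -0.53 and -0.41 for Ssz1 S295F. *RTC3*, *SIP18* and *GRE1* also read below the 5th percentile of the Ssz1 S295F array. On vector *RTC3* lay at the 11.1th percentile, *SIP18* at the 3.50th, *GRE1* at the 7.55th, *PAI3* at the 12.5th and *TIP1* at the 94.7th. Only *SIP18* and *GRE1* of these are thus among the 577 genes dim on vector. The shortest gene of the list, *HOR7* of 180 bp, was above vector, at 0.19 ± 0.01 for Ssz1 S295F and 0.37 ± 0.02 for the Zuo1 fragment. The longest, *ENA1* of 3276 bp, was at 0.07 ± 0.06 for Ssz1 S295F and 0.06 ± 0.03 for the Zuo1 fragment. *HSP12*, of 330 bp and at the 66.4th percentile on vector, was at -0.60 ± 0.02 for Ssz1 S295F and -0.05 ± 0.0045 for the Zuo1 fragment. *HOR7*, *ENA1* and *HSP12* were named with their values known, so nothing is read from them about length. The part of length and dimness in this list was not tested.

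Among regulators of glycerol use, 3 of 13 were higher and 0 lower for Ssz1 S295F, and 1 of 13 was higher and 0 lower for the Zuo1 fragment. The share of all genes higher was 5.02% for Ssz1 S295F and 3.64% for the Zuo1 fragment. Of the 577 genes dim on vector, 17.3% were higher for Ssz1 S295F and 13.5% for the Zuo1 fragment. The list median was 0.29 for Ssz1 S295F and 0.04 for the Zuo1 fragment. *ADR1*, the activator of genes for glycerol and ethanol use, had levels of 1842 with Ssz1 S295F, 929 with the Zuo1 fragment and 723 with vector. Its ratio to vector was 1.35 ± 0.09 for Ssz1 S295F and 0.36 ± 0.08 for the Zuo1 fragment. *CAT8*, an activator of gluconeogenic genes, had levels of 1155 with Ssz1 S295F, 588 with the Zuo1 fragment and 492 with vector. Its ratio to vector was 1.23 ± 0.01 for Ssz1 S295F and 0.26 ± 0.10 for the Zuo1 fragment. Compared directly, Ssz1 S295F exceeded the Zuo1 fragment by 0.99 ± 0.02 for *ADR1* and 0.98 ± 0.11 for *CAT8*, just under 2-fold. *MIG1*, the glucose repressor gene, was higher with both constructs, at 1.16 ± 0.07 for Ssz1 S295F and 1.03 ± 0.0019 for the Zuo1 fragment. On the vector array *CAT8* lay at the 9.38th percentile, *ADR1* at the 13.5th and *MIG1* at the 33.8th. The part of dimness in these ratios was not tested. *INO4*, a partner in the activator of phospholipid genes, was at -0.83 ± 0.07 for Ssz1 S295F and -0.67 ± 0.03 for the Zuo1 fragment.

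Genes listed here as targets of Adr1 or Cat8, outside the glycerol genes, had 0 of 12 past 2-fold in each comparison with vector. The shares of all genes were 5.02% higher and 2.77% lower for Ssz1 S295F, and 3.64% higher and 0.866% lower for the Zuo1 fragment. In a list of 12, nothing is read from a count of 0 beside them. The list had a median of 0.06 for Ssz1 S295F and -0.05 for the Zuo1 fragment. *ICL1*, isocitrate lyase, was at 0.78 ± 0.06 for Ssz1 S295F and 0.48 ± 0.16 for the Zuo1 fragment. *ADH2*, the ethanol-oxidising alcohol dehydrogenase, was at -0.10 ± 0.04 for Ssz1 S295F and 0.05 ± 0.03 for the Zuo1 fragment. *FBP1*, fructose bisphosphatase, was at -0.997 ± 0.01 for Ssz1 S295F, which did not reach 2-fold, and -0.67 ± 0.02 for the Zuo1 fragment. Its levels were dim, at 153 with Ssz1 S295F, 191 with the Zuo1 fragment and 305 with vector. The ratios of *GUT2* to vector were above those of all 12. *GUT2* already stood out when the members were chosen, so nothing is read from this.

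Kinases known to act on Gpd1, Gpd2 or Fps1, with kinases upstream of them, had 1 of 6 higher and 0 lower in both comparisons with vector, against 5.02% of all genes higher for Ssz1 S295F and 3.64% for the Zuo1 fragment. The list had a median of 0.21 for Ssz1 S295F and 0.12 for the Zuo1 fragment. The list was chosen with earlier results of these data known, so nothing is read from its count. The higher gene was *YPK2*, at 3.10 ± 0.04 for Ssz1 S295F and 2.59 ± 0.03 for the Zuo1 fragment. *YPK2* lay at the 13.0th percentile on vector and was the gene nearest to *GUT2* in the distances above. Its paralogue *YPK1*, whose product phosphorylates Gpd1 and Fps1, was at 0.07 ± 0.08 for Ssz1 S295F and 0.09 ± 0.08 for the Zuo1 fragment.

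**Figure D4:**
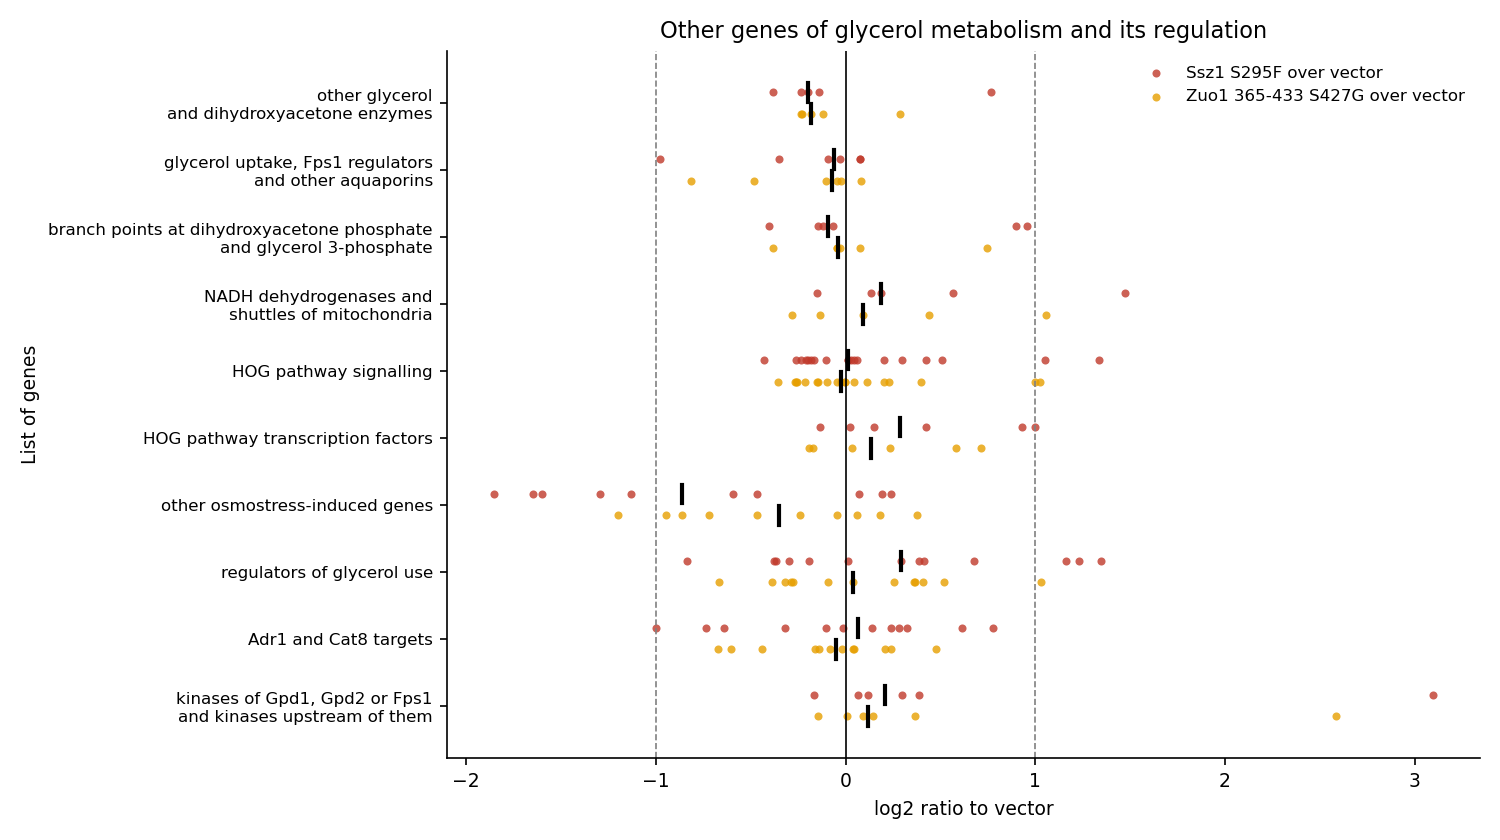
Log2 ratios to vector of the members of 10 lists of genes around the glycerol pathway, with 1 point per gene for Ssz1 S295F and for the Zuo1 fragment, a black bar at each list's median and dashed lines at 2-fold. Most points lie within 2-fold, the osmostress list lies to the left, and *YPK2* stands alone at the right.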

How the data were processed

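The authors deposited linear intensity values per gene for 3 one-colour arrays, made with RMA per the submitters' processing notes. Each gene has 3 block values per array. RNA of 3 biological replicates was pooled per array, per the series' design text. A deposited table of the whole series held the mean intensity over blocks for 5769 genes (largest relative difference 3.33e-10). A second column of unstated meaning was not used.

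Block intensities were converted to log2 and averaged with no floor, and ratios are differences between arrays (Python 3.11.15, pandas 2.3.3, numpy 2.4.6). Loess curves used statsmodels 0.14.6 with a span of 0.3. Calls are 2-fold, a rule of size with no test. The ratio step was tested on simulated data. Precision is limited by 1 array per group. Genes were named by locus tag through RefSeq (assembly R64) for 5771 of 5777 genes. Coordinates are those of the array files, whose build is not stated there.

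The members and lists were chosen with earlier results of these data known. All 10 members were named, with up to 4 genes per list by size of ratio, the chromosome neighbours of *GUT2* and *AQY3*, and the 3 genes most like each. *RGC1*, *RGC2*, *SCT1*, *NDE2*, *HOG1*, *TIP1*, *HOR7*, *ENA1*, *HSP12*, *ADH2* and *YPK1* were named after their values were seen. Alternatives were other averaging, scaling, loess, pseudocount, thresholds and subsets of members. A planned motif search in promoters was not run.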

Additional observations from a re-analysis of the deposited data

How the results depend on the processing

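The count of 2 members past 2-fold above vector held under all 14 alternatives for each construct, but 2 of these could not have changed it. They left out dim members, judged by the brighter array of the comparison, or the 4 synthesis genes, and so could not remove *GUT2* or *AQY3*. Another 2, the deposited table of the whole series and the log2 of the mean block intensity, gave the same values as each other. The lower threshold of 1.5-fold could only have added members. *GUT2* lay between 2.72 and 3.56 for Ssz1 S295F and between 2.09 and 2.87 for the Zuo1 fragment. *AQY3* lay between 2.34 and 3.25 for Ssz1 S295F and between 1.80 and 2.63 for the Zuo1 fragment. For Ssz1 S295F over the Zuo1 fragment the count of 0 became 2 at a threshold of 1.5-fold. Of 300 single member values under 10 alternatives, 29 changed sign, none of them past 2-fold, and 0 changed their side of 2-fold. The median of the members moved more easily. Centring subtracts the median of all genes from every ratio, and leaving out members changes the values that the median is taken over. The cause of the other shifts was not tested. For Ssz1 S295F over vector it was 0.04, and 0.031 with block 2 alone, 0.19 centred on the median of all genes, 0.11 after quantile normalization, 0.28 after the loess on mean level, 0.16 after the loess on coding length, 0.16 without members under the 25th percentile and 0.29 without *GPD1*, *GPD2*, *GPP1* and *GPP2*. For the Zuo1 fragment over vector it was -0.05, and 0.0031 with block 1 alone, 0.069 centred, 0.14 after the loess on mean level, 0.21 after the loess on coding length and 0.32 without those 4 genes. For Ssz1 S295F over the Zuo1 fragment it was 0.027 centred, 0.032 after the loess on coding length and 0.16 without those 4 genes. No paired analysis was possible because each group has 1 array, and for the same reason no array could be left out. Low signal limits the ratios of genes that are dim on vector.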
